A study of Homo sapiens with 8 samples.

Results

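NEAT1 is a long noncoding RNA that stays in the nucleus and forms the scaffold of paraspeckles, bodies that gather RNA-binding proteins. It is made as a short and a long isoform with a common 5′ end, and the long isoform is the one that builds the paraspeckle. The polypyrimidine tract binding protein (PTB) is a mainly nuclear splicing regulator that binds RNA rich in U and C. The values below describe where PTB peaks lay along NEAT1 in hg19, on the plus strand of chr11:65190245-65213011, an interval of 22767 nt. All same-strand peaks that met this interval were taken, 204 of 266317 peaks in 5 deposited lists. The members were selected on position and strand alone, but the gene itself was chosen by the number of its peaks in these lists and their overlap. How many peaks it holds, and how far the lists meet on it, are therefore given as a description without a test.

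The peaks come from GoldCLIP, a gel-free form of crosslinking and immunoprecipitation (CLIP), in which RNA joined to a protein by ultraviolet light is recovered with it and sequenced. It was done in 293T cells, an established line from human embryonic kidney, carrying as a transgene either PTB or yellow fluorescent protein (YFP) fused to a Halo tag, which bonds to a bead-bound ligand. All 8 samples were grown with puromycin and fall into 4 groups of 2: Halo-PTB with UVC, Halo-PTB with UVA, Halo-PTB without UV, and Halo-YFP with UVC. The submitters deposited 1 list per group, without replicate names. The remaining list holds PTB peaks that they derived again from published data of iCLIP, an older CLIP protocol that uses a gel, and its cells are not named in the labels. The tagged protein comes from a transgene, and the labels do not give its level beside the cell's own PTB. The lists come without read numbers and without replicates, so neither the depth nor the spread between samples is known. The level of NEAT1 RNA in each sample was not measured here, and its part in the counts below was not tested.

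The 3 PTB lists held 196 of the 204 NEAT1 peaks. They also hold most of the 266317 peaks of the series: 118434 in UVC, 83725 in UVA and 58213 in iCLIP. The iCLIP list had 89 peaks in the interval (0.153% of the list, exact Clopper-Pearson 95% interval 0.123 to 0.188), the UVC list 58 (0.0490%, 0.0372 to 0.0633) and the UVA list 49 (0.0585%, 0.0433 to 0.0774). These intervals, and those below, cover counting error alone and take each peak as independent of the next, which touching peaks are not. The 2 control lists are much shorter. They held 6 NEAT1 peaks without UV (0.158% of 3809 peaks, 0.0578 to 0.343) and 2 with YFP (0.0936% of 2136, 0.0113 to 0.338). As shares of their lists, these were not below the UVC and UVA shares. Many peaks touched their neighbour, 23 times in iCLIP, 10 in UVC and 7 in UVA. When peaks of a list within 20 nt of each other were joined into sites, 59 iCLIP, 45 UVC, 41 UVA, 3 no-UV and 1 YFP sites were left. The peaks covered 4409 nt of the interval in iCLIP (19.4%), 2657 nt in UVC (11.7%) and 2413 nt in UVA (10.6%), against 140 nt without UV and 86 nt with YFP.

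Few fixed windows of the genome held as many PTB peaks. NEAT1 was counted from its own ends, whereas a window border can cut a gene and lower its count. The gene was also chosen by its number of peaks, so the ranks are no test. Among consecutive windows of 22767 nt on either strand that held any peak of a list, the median held 3 UVC peaks, 2 UVA peaks and 2 iCLIP peaks. Windows with at least as many peaks as NEAT1 numbered 2 of 30165 for UVC (0.00663%), 9 of 22138 for UVA (0.0407%) and 0 of 19221 for iCLIP. For the list without UV they were 18 of 2128 (0.846%). For YFP they were 754 of 974 (77.4%), so the 2 YFP peaks on NEAT1 are a count that most windows with a YFP peak reached.

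The surroundings of the RNA held few peaks. No list had a peak on the minus strand of the interval. The 22767 nt upstream on the same strand held 2 UVC, 4 UVA and 2 iCLIP peaks with scores of at most 35, and the 22767 nt downstream held no peak of any list. The first peaks inside the 5′ end began after 520 nt in UVA (score 69), 700 nt in UVC (score 30) and 896 nt in iCLIP (score 345). The nearest peaks outside were 15684 nt upstream in UVC (score 16), 18088 nt in iCLIP (score 35) and 20136 nt in UVA (score 29). At the 3′ end the last peaks inside ended 1028 nt before it in iCLIP (score 18), 1676 nt in UVC (score 30) and 6901 nt in UVA (score 77). Beyond it the nearest peaks lay 53699 nt away in UVA (score 1000), 55282 nt in iCLIP (score 61) and 55880 nt in UVC (score 146). In the gene order of RefSeq, NEAT1 lies between FRMD8 and the pseudogene FAUP4 on chromosome 11.

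**Figure D1:**
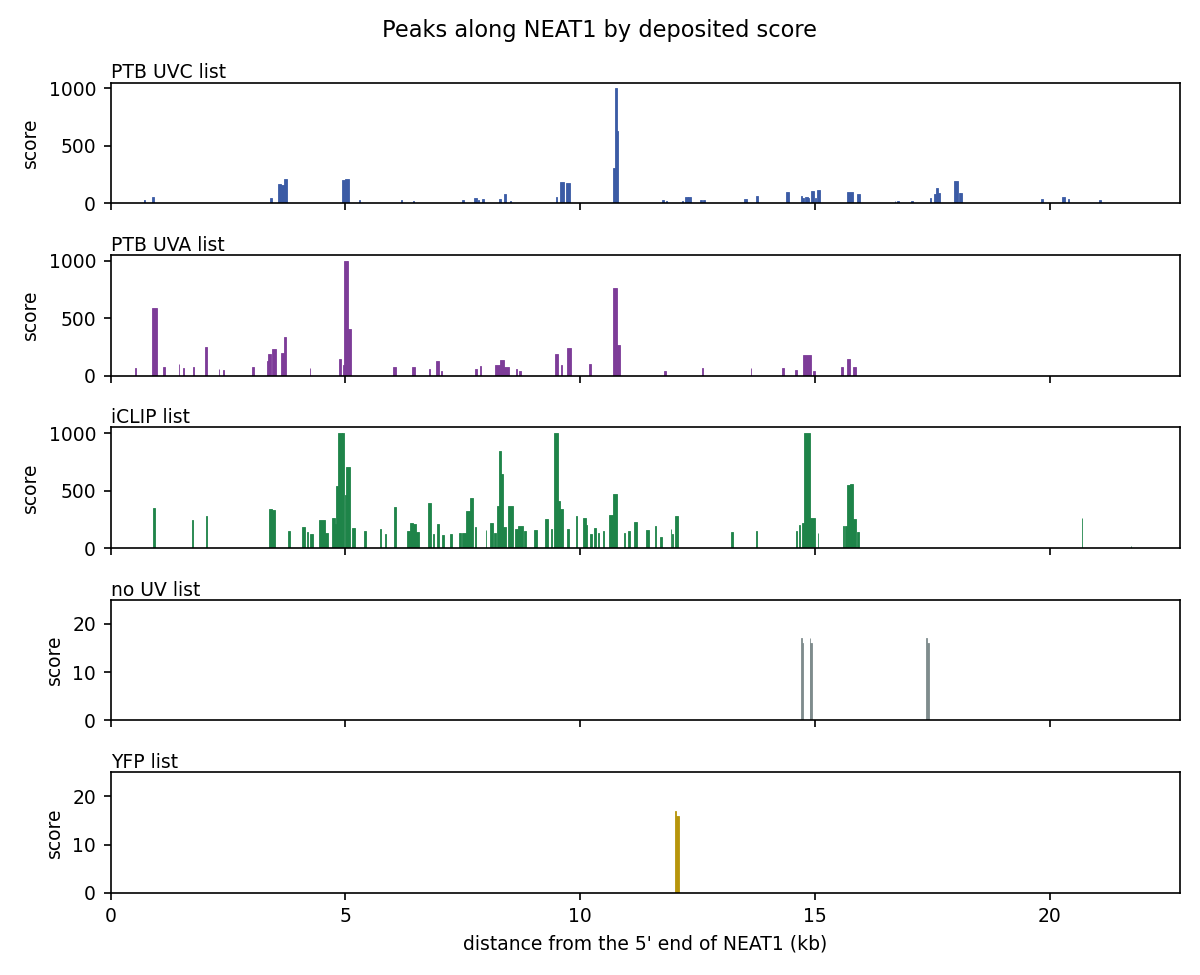
Peaks along NEAT1 in the 5 lists, by distance from the 5′ end in kb; each bar spans a peak and its height is the deposited score, limited to 1000 (the control panels end at 25). UVA peaks end at 15866 nt, UVC peaks go on to 21091 nt, and no control peak scores above 17.

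The deposited score of a peak is the authors' own value and rises as its p-value falls. It ranks peaks within a list and does not measure binding between lists. On NEAT1 the UVC scores ran from 15 to 1000 with a median of 51.5, against a median of 19 over the whole UVC list, and 56 of 58 peaks were at or above that list median. iCLIP scores ran from 18 to 1000 with a median of 194, against 47 over the list, and 88 of 89 were at or above the list median. UVA differed: its NEAT1 scores ran from 36 to 1000 with a median of 80, below the list's 92, and 24 of 49 peaks reached the list median. The low end of the iCLIP scores was empty. Apart from 1 peak with a score of 18 near the 3′ end, every iCLIP peak on NEAT1 scored at least 98, a level that 75.1% of the iCLIP list falls short of. The peaks were somewhat wider than in the lists as a whole, with median widths of 44.5 nt (UVC), 46 nt (UVA) and 44 nt (iCLIP), against 36, 38 and 38 nt.

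Along the RNA the 3 PTB lists had different profiles. The median peak centre lay 6954 nt from the 5′ end in UVA, 8509 nt in iCLIP and 12297 nt in UVC. The interval was divided for description into the first 4 kb, the stretch from there to the end of the last UVA peak at 15866 nt, and the rest. Since the last boundary was read from the UVA list, these shares are no test. The first 4 kb is the part that also contains the short isoform.

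By number, UVA peaks were dense in the first 4 kb and the other lists were sparse there. This part, 17.6% of the interval, held 15 of 49 UVA peaks (30.6%, 18.3 to 45.4), 7 of 58 UVC peaks (12.1%, 4.99 to 23.3) and 6 of 89 iCLIP peaks (6.74%, 2.51 to 14.1). By nucleotides UVA was hardly denser here, with 15.65% of this part covered beside 15.1% of the stretch from 4001 to 15866 nt. UVC peaks covered 7.95% and iCLIP peaks 6.625% of this part, beside 14.8% and 34.3% of that stretch. The longest stretch without a UVC peak, 2459 nt from nt 926 to 3384, lay within the first 4 kb. In the second and the third 1 kb window the UVA list had 4 and 3 peaks, iCLIP 1 and 1, and UVC 0 and 0. The few iCLIP peaks of the first 4 kb all scored between 147 and 345, and the 15 UVA peaks had a median score of 101.

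The middle of the RNA carried most peaks of each PTB list, and iCLIP most of all. Between 4001 and 15866 nt, 52.1% of the interval, lay 80 of 89 iCLIP peaks (89.9%, 81.7 to 95.3), 34 of 49 UVA peaks (69.4%, 54.6 to 81.7) and 36 of 58 UVC peaks (62.1%, 48.4 to 74.5). iCLIP peaks covered 34.3% of this stretch, UVA peaks 15.1% and UVC peaks 14.8%. Per 1 kb window, iCLIP coverage was highest at 619 nt in the window starting at 4001 nt and 581 nt in the one starting at 8001 nt. UVA coverage was highest in the latter window, at 363 nt. UVC coverage was more even and highest between 15001 and 16000 nt, at 290 nt. From 12001 to 13000 nt the order turned, with 231 nt covered in UVC, 70 nt in iCLIP and 19 nt in UVA.

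The last 6901 nt held mostly UVC peaks: 15 of 58 UVC peaks (25.9%, 15.3 to 39.0) in 12 sites and 3 of 89 iCLIP peaks (3.37%, 0.701 to 9.54). That 0 of 49 UVA peaks lay there is fixed by the boundary, which is the end of the last UVA peak. The 3 iCLIP peaks scored 136, 263 and 18. The 15 UVC peaks had a median score of 57 and ran from 18 to 196, beside a median of 49.5 for the UVC peaks of the middle stretch. The highest was chr11:65208209-65208282, 74 nt, with a score of 196, and chr11:65207830-65207863 followed with 136. They lay 2098 and 1719 nt from the nearest UVA peak and 2038 and 1659 nt from the nearest iCLIP peak. The second of them was also 166 nt from a peak of the list without UV. The longest stretch with no peak of any PTB list, 1695 nt from nt 18123 to 19817, is in this part, and the last 1028 nt of the interval had none either.

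**Figure D2:**
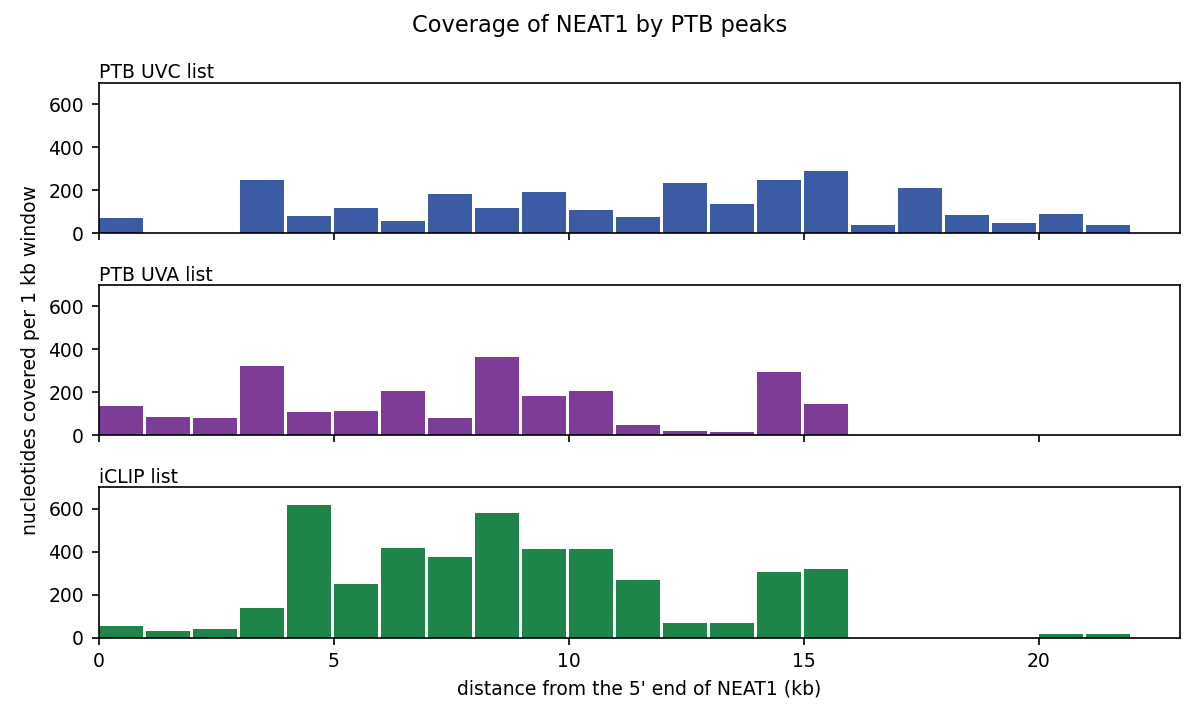
Nucleotides of NEAT1 covered by peaks of each PTB list in 1 kb windows from the 5′ end (the last window is shorter). Coverage in iCLIP reaches 619 nt in a window, UVA stops after the window that starts at 15001 nt, and UVC has none in the second and the third window.

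Over the 23 windows, covered nucleotides in UVA and iCLIP went together more closely (Pearson r 0.67, Spearman rho 0.82) than in UVC and UVA (0.40 and 0.42) or UVC and iCLIP (0.28 and 0.41). Windows of 1 gene are not independent of each other, and those of the first 4 kb also contain the short isoform. The correlations are therefore descriptions. Both UVA and iCLIP had peaks in 16 windows, iCLIP alone in 2 and UVA alone in 0, and 5 windows had neither. From 16001 nt on, UVA covered 0 nt and iCLIP at most 19 nt per window. These windows, empty or nearly so in both lists, enter their correlation.

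The lists met each other on NEAT1 more often than over their whole length. Of the 49 UVA peaks, 33 overlapped an iCLIP peak by at least 1 nt (67.3%, 52.5 to 80.1; whole UVA list 20.4%) and 22 overlapped a UVC peak (44.9%, 30.7 to 59.8; whole list 13.6%). Of the 58 UVC peaks, 24 overlapped a UVA peak (41.4%, 28.6 to 55.1; whole UVC list 9.61%) and likewise 24 an iCLIP peak (whole list 5.45%). Of the 89 iCLIP peaks, 38 overlapped a UVA peak (42.7%, 32.3 to 53.6; whole iCLIP list 25.9%) and 26 a UVC peak (29.2%, 20.1 to 39.8; whole list 9.59%). A list that covers more of a stretch is met more often there, and the peaks cover 10.6% to 19.4% of NEAT1. How much of the difference from the whole lists this accounts for was not tested.

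**Figure D3:**
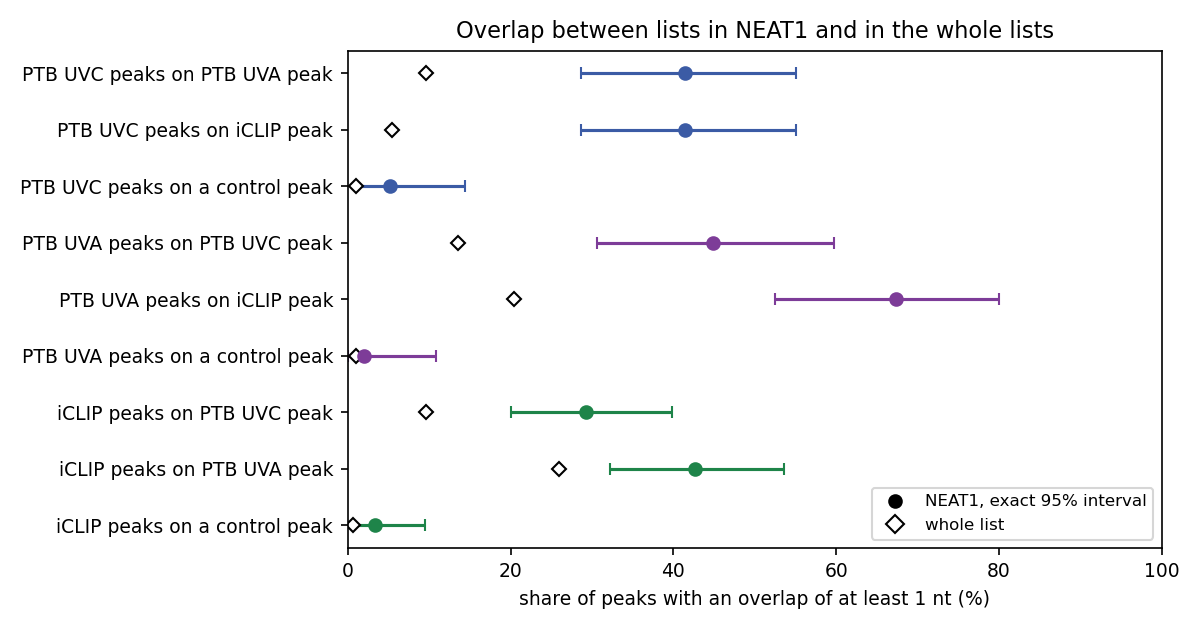
Share of peaks of 1 list (rows) that overlap a peak of another by at least 1 nt, in percent: filled points are NEAT1 with exact 95% intervals, open diamonds the whole list. The 6 shares between PTB lists on NEAT1 run from 29.2% to 67.3%, and the whole-list values from 5.45% to 25.9%.

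Higher-ranked peaks were shared more often. Of the 25 UVA peaks scoring at least 80, NEAT1's own median, 17 lay on a UVC peak (68.0%) and 19 on an iCLIP peak (76.0%), against 5 and 14 of the 24 lower ones. Of the 45 iCLIP peaks scoring at least 194, 28 lay on a UVA peak and 18 on a UVC peak, against 10 and 8 of the 44 lower ones. In UVC it was 15 of 29 upper and 9 of 29 lower peaks for either partner. Peaks of the whole lists at or above the same scores were also shared more often than those lists as a whole. For UVC peaks on a UVA peak it was 51.7% on NEAT1 (32.5 to 70.6) beside 38.6% in the list. For iCLIP peaks it was 62.2% (46.5 to 76.2) beside 47.5% on UVA, and 40% (25.7 to 55.7) beside 26.3% on UVC. The gap was wider for UVC on iCLIP, at 51.7% (32.5 to 70.6) beside 19.2%, for UVA on UVC, at 68.0% (46.5 to 85.1) beside 19.8%, and for UVA on iCLIP, at 76.0% (54.9 to 90.6) beside 29.5%. The cut is not alike across lists: it kept 45528 of 83725 UVA peaks, but 7077 of 118434 UVC and 5078 of 58213 iCLIP peaks. In UVA it lies below the list median of 92 and so selects little. The overlap was known when the gene was chosen, so these shares too are descriptions.

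Some peaks that missed a partner lay near one. Of the 34 UVC peaks that overlapped no UVA peak, 12 had one within 100 nt (35.3%, whole list 7.50%). Of the 51 iCLIP peaks without a UVA overlap it was 26 (51.0%, whole list 13.0%), and of the 16 UVA peaks without an iCLIP overlap 7 had an iCLIP peak that near (43.8%, whole list 13.1%). Sites are close together on NEAT1, with a median gap between neighbours of 239 nt in UVA and 103 nt in iCLIP. A position on it is thus often within 100 nt of a peak. How much of the difference from the whole lists this accounts for was not tested. Counted by nucleotide, 6640 nt of NEAT1 (29.2% of the interval) lay in a peak of any PTB list. Of these, 37.8% were in iCLIP alone, 20.3% in UVC alone and 9.55% in UVA alone, and 686 nt (10.3%) were in all 3. UVA and iCLIP without UVC had 841 nt in common, more than UVC and iCLIP without UVA (374 nt) or both GoldCLIP arms without iCLIP (252 nt).

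Of the 45 UVC sites, 15 lay on a site of each other PTB list (33.3%, 20.001 to 48.95; whole UVC list 3.57%), 3 a UVA site alone and 5 an iCLIP site alone. The other 22 met neither (48.9%, whole list 86.1%). Seen from the other lists, 13 of 41 UVA sites (31.7%, whole list 4.38%) and 12 of 59 iCLIP sites (20.3%, whole list 5.66%) met both partners. Neither partner was met by 11 UVA sites (26.8%, whole list 72.8%) and 34 iCLIP sites (57.6%, whole list 70.9%). The 15 UVC sites in all 3 lists were 34 to 161 nt wide, and each held at least some nucleotides common to all 3. They ran from nt 875 to 15803. That none lay in the last 6901 nt follows from its boundary, the end of the last UVA peak.

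From the 5′ end, the first of them was chr11:65191119-65191169 (51 nt), with a UVC score of 56, a UVA score of 585 and an iCLIP score of 345. The next, chr11:65193629-65193678, scored 41, 192 and 337 in the same order. These were the only ones in the first 4 kb. The widest was chr11:65195165-65195325 (161 nt, from nt 4921 to 5081), with a UVC score of 207 and scores at the limit of 1000 in UVA and iCLIP. All 3 lists shared 129 nt of it, the most of the 15 sites. Its UVA part comprised both UVA peaks at the limit, chr11:65195218-65195279 and chr11:65195280-65195299. The iCLIP peak chr11:65195082-65195164, also at the limit, ended where the UVC site began and shared no nucleotide with it, while 46 of its 83 nt lay in UVA peaks.

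Between 6 and 9 kb the shared sites were 34 to 57 nt wide. The site chr11:65196674-65196707 (34 nt) scored 23 in UVC, 77 in UVA and 219 in iCLIP, and chr11:65197986-65198035 scored 47, 55 and 181. A pair followed, chr11:65198514-65198549 with a UVC score of 38 and chr11:65198613-65198669 with 76. Both fell on the same UVA site, whose highest score was 134, and on the same iCLIP site, whose highest score was 848. In the 3 windows from 6001 to 9000 nt iCLIP peaks covered 418, 374 and 581 nt, and UVC peaks 57, 183 and 119 nt.

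A further group of 3 lay between nt 9482 and 9776. The first, chr11:65199726-65199759, scored 52 in UVC and 189 in UVA, and chr11:65199810-65199891 scored 185 and 95. Both met 1 iCLIP site with a score at the limit. In the third, chr11:65199946-65200020, the scores were 177 (UVC), 239 (UVA) and 164 (iCLIP). UVC thus gave its lowest score of these to the first, while the iCLIP peak over that first site, chr11:65199685-65199777, scored 1000.

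The highest UVC score on NEAT1 was at chr11:65200952-65201058 (107 nt, from nt 10708 to 10814). It was made of 3 touching peaks with scores of 307, 1000 and 632, which are the 3 highest UVC scores on the RNA. The middle peak, chr11:65200978-65201019, is 1 of 257 in the UVC list at the limit, and it lay whole within both a UVA and an iCLIP peak. The UVA peak chr11:65200947-65201029 scored 759, the third highest UVA score on NEAT1, and the iCLIP peak beneath scored 472. No control peak lay within 1212 nt. Of the 257 UVC peaks at the limit, 234 lay on a control peak (91.1%), and this was among the few that did not.

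**Figure D4:**
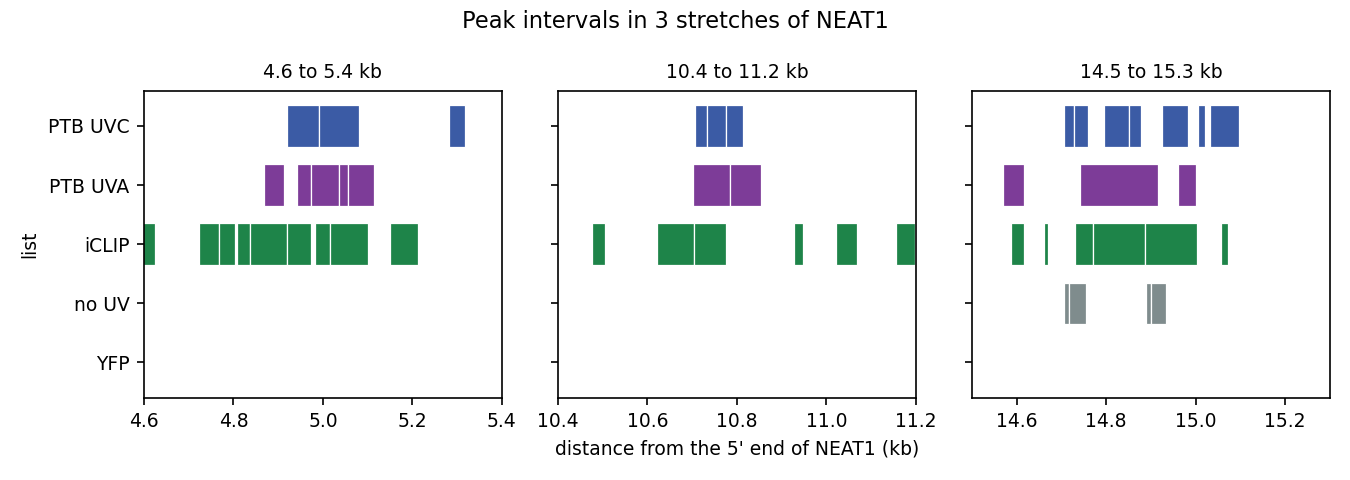
Peak intervals of the 5 lists in 3 stretches of NEAT1, by distance from the 5′ end in kb; each block is 1 peak. The stretches hold the widest shared site (from nt 4921 to 5081), the site with the highest UVC score (from nt 10708 to 10814), and the shared sites beside no-UV peaks (from nt 14707 to 14983).

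The last group of shared sites was also where the list without UV had peaks. The sites were chr11:65204951-65205003, chr11:65205041-65205123 and chr11:65205169-65205227, with UVC scores of 64, 51 and 104. They met 1 iCLIP site of 274 nt with a score at the limit, whose highest peak was chr11:65205016-65205130. The first and second met a UVA peak of 175 nt that scored 178, and the third a UVA peak that scored 36, the lowest on NEAT1. The first shared 48 of its 53 nt and the third 10 of its 59 nt with no-UV peaks, and the second lay 11 nt from one. The last shared site, chr11:65205916-65206047 (132 nt), scored 94 in UVC, 147 in UVA and 554 in iCLIP and was 737 nt from a control peak. Across the 15 sites the scores of the lists went together weakly or not at all. Spearman rho was 0.37 for UVC and UVA, 0.28 for UVC and iCLIP and -0.04 for UVA and iCLIP. Some of the 15 met the same UVA or iCLIP site and so repeat its score, and several iCLIP scores are tied at the limit.

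The 8 control peaks formed 4 sites, each a pair of touching peaks. The list without UV had chr11:65204950-65204998 (49 nt), chr11:65205135-65205178 (44 nt) and chr11:65207617-65207663 (47 nt). In each, a piece of 11 nt with a score of 17 was followed by a longer piece with a score of 16, and the 3 short pieces had the same p-value, 0.0198. The YFP list had chr11:65202271-65202356 (86 nt), with scores of 17 and 16. Scores of 16 and 17 are at the level of either control list's median of 17. The first 12026 nt of NEAT1 held no control peak.

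PTB peaks met 3 of these 4 sites. Of the UVC peaks, 3 of 58 lay on a control peak (5.17%, 1.08 to 14.4, whole list 1.01%), of the UVA peaks 1 of 49 (2.04%, 0.0517 to 10.9, whole list 1.04%) and of the iCLIP peaks 3 of 89 (3.37%, 0.701 to 9.54, whole list 0.601%). Seen from the controls, 3 of the 6 no-UV peaks lay on a UVC peak (whole no-UV list 15.8%), 3 on a UVA peak (12.6%) and 3 on an iCLIP peak (6.17%). Both YFP peaks lay on an iCLIP peak (whole YFP list 9.22%) and neither on a UVC (25.1%) or UVA peak (21.3%). The first and second no-UV sites met peaks of all 3 PTB lists. The third met none, with a UVC peak 34 nt away and the nearest UVA and iCLIP peaks over 1 kb away. The YFP site met an iCLIP peak that scored 282 and no UVC or UVA peak, and the nearest UVC peak was 53 nt away. Without the sites that overlap a control peak, 13 of the 15 shared sites were left.

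In UVC 29 of 58 peaks met neither other PTB list, in iCLIP 44 of 89 and in UVA 12 of 49. The highest of the iCLIP ones, chr11:65195052-65195081 with a score of 541, lay 31 nt from a UVA peak and 83 nt from a UVC peak, next to the widest shared site. The next, chr11:65197890-65197952 with 431, lay 43 and 33 nt away from them. The highest of the UVA ones, chr11:65193569-65193604 with a score of 124, lay 24 nt from a UVC peak and 13 nt from an iCLIP peak, while the next, chr11:65191697-65191705 with 101, lay 527 and 267 nt away. The 2 highest of the UVC ones were those in the last 6901 nt described above, with no UVA or iCLIP peak within 1 kb. The next of the UVC ones, chr11:65204627-65204682 with a score of 99, lay 48 nt from a UVA peak and 150 nt from an iCLIP peak.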

How the data were processed

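The submitters' processing notes name the aligner Bowtie 1.1.2 and, as builds, hg19 and dm3. Positions are taken to be hg19. What dm3 served for, which peak caller and filters were used, and how replicates were pooled is not given in the sources used here. Each deposited list has 10 columns without a header. The deposited score was 10 times the negative log10 of the deposited p-value, rounded down, in 103 of the 107 NEAT1 peaks whose printed p-value was above 0. The other 97 are printed with a p-value of 0 and could not be checked, nor could the apparent limit of 1000. Peaks with a p-value and a score of 0 were taken as at the limit.

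Same-strand peaks meeting the NEAT1 interval were kept and written 1-based. Positions along the RNA count from 1 at the interval's 5′ end. A peak belongs to the window or stretch that holds its centre. Overlap needed at least 1 nt on the same strand, and peaks within 20 nt were merged into sites, which keep their highest score. Whole lists treated in the same way gave the background. Overlap counting was tested on simulated data, and bedtools 2.31.1 gave the same counts in 20 of 20 pairs. Python 3.11.15, numpy 2.4.6, scipy 1.17.1 and matplotlib 3.10.9 were used. The alternatives were 50% coverage of the peak, merged sites, repeated intervals counted once, peaks at or above the list's median score, both strands, and merging distances of 0 and 50 nt.

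Positions named were the UVC sites in all 3 PTB lists, the 3 highest-scoring peaks of each PTB list, all control peaks, and the longest stretch without a PTB peak. The highest peaks found in 1 list only and the 3 stretches of the RNA were chosen after their values were seen. The gene, the lists and the rules were chosen with earlier results of these data known. No sequence is printed, since no hg19 genome was used here.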

Additional observations from a re-analysis of the deposited data

How the results depend on the processing

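Each group is a single pooled list, so no replicate could be left out. No paired analysis was possible because the lists carry no replicate numbers and no value comes from a test. Of 55 values recomputed under an alternative, 45 stayed within the interval of the reported share or within 1.5 times the reported count. The 45 include every value from counting repeated intervals once or counting both strands. These alternatives could change nothing, since no list had a repeated interval or a minus-strand peak on NEAT1. Merging peaks into sites lowered iCLIP from 89 to 59, no UV from 6 to 3 and YFP from 2 to 1. Keeping peaks at or above the list's median score lowered UVA from 49 to 24, no UV to 3 and YFP to 1. It also raised the share of UVA peaks on a UVC peak from 44.9% to 70.8%, and lowered that of iCLIP peaks on a UVA peak from 42.7% to 27.3%, where fewer UVA peaks were left to meet. With at least 50% of the peak covered, the share of UVA peaks on a UVC peak was 28.6%, and that of UVA peaks on a control peak was 0%, from 1 peak to 0 of 49. The number of sites in all 3 PTB lists was 15 as reported, 16 and 12 with merging distances of 0 and 50 nt, and 12 at or above the median scores. Depth is unknown, so a stretch without peaks, such as the last 6901 nt in UVA, is not shown to be unbound.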
